A study of Mus musculus with 6 samples.

Results

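Of the 34945 probe sets that the array's annotation ties to exactly 1 gene, 20 belong to 10 myosin heavy chain genes, out of 18193 genes in all: Myh4, Myh1 and Myh2 of adult fast fibres, Myh7 of slow fibres, Myh6 of the heart, Myh3 and Myh8 of developing muscle, Myh11 of smooth muscle, and Myh9 and Myh10 of non-muscle cells. The members were found by their symbols, and the family itself was picked with earlier results of these data known. Their RNA was measured in inguinal white fat, the subcutaneous depot of the groin, on 6 Affymetrix Mouse Genome 430 2.0 arrays, each from a different male mouse. Of these mice 3 were wild type (WT) and 3 carried a knockout of Naa10 (Naa10-KO), which encodes an enzyme that acetylates the N-termini of new proteins. From 6 weeks of age both genotypes were fed high-fat chow (60% of its calories) over 15 weeks, and a cold exposure of 4 h at 4 °C came last. The labels give neither the strain nor the tissues in which Naa10 was deleted, and no probe set was annotated to Naa10, so the genotype labels were not checked against its transcript.

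Myosin of this class is a motor that pulls on actin filaments. Each molecule holds a pair of heavy chains, whose heads split ATP, and smaller light chains that sit on the neck of each head. Muscle fibres differ in speed largely through the heavy chain they express: IIb (Myh4) is the fastest, followed by IIx (Myh1) and IIa (Myh2), while the β chain (Myh7) drives slow fibres and the α chain (Myh6) the heart. The embryonic (Myh3) and perinatal (Myh8) chains are made by developing and regenerating fibres. Non-muscle myosins IIA (Myh9) and IIB (Myh10) work in the cytoskeleton of most cells, and the smooth muscle chain (Myh11) marks contractile cells of vessel walls. Whether adipocytes made sarcomeric myosin was not tested here.

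In the RefSeq genes of assembly GRCm38.p6, the skeletal chains stand next to each other on chromosome 11 in the order Myh3, Myh2, Myh1, Myh4, Myh8, with no other protein-coding gene between them. RefSeq promoter windows of that assembly were found for 9 of the 10 members, Myh11 being the exception. The 250 bases before the start of the 3 adult fast chains and the perinatal chain are shown. All 4 windows share a stretch of sequence, and Myh4 and Myh8 were the members whose genotypes did not overlap. With Naa10-KO higher, 10% of all genes did not overlap either, and Myh8 had low signal on all 6 arrays. Whether the shared letters bear on the signals was not tested. Myh9, a chain with steady signal, is shown for contrast. Capitals mark the longest run of letters common to the first 4 windows and, where present on the gene's own strand, the TATAAA nearest the start. The shared runs were found after the sequences had been read.

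Myh4, chr11:67237562-67237811, plus strand: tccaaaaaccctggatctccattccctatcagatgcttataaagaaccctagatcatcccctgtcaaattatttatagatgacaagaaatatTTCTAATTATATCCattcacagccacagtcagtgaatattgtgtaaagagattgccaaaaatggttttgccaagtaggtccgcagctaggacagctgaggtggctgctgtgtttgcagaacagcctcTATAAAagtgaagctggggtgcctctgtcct

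Myh1, chr11:67199852-67200101, plus strand: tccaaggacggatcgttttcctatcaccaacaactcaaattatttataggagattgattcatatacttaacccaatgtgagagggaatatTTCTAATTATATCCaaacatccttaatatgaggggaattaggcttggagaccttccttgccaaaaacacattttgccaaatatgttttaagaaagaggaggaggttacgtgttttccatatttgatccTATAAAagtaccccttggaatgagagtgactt

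Myh2, chr11:67170777-67171026, plus strand: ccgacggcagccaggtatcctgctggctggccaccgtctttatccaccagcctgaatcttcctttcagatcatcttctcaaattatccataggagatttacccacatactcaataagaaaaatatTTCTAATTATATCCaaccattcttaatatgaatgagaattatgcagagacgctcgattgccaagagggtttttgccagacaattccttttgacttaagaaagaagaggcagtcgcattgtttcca

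Myh8, chr11:67276874-67277123, plus strand: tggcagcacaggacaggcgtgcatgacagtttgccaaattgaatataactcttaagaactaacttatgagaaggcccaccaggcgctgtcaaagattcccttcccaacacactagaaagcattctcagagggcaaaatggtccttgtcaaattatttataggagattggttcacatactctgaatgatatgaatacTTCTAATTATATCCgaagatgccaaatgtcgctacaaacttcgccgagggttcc

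Myh9, chr15:77842176-77842425, minus strand: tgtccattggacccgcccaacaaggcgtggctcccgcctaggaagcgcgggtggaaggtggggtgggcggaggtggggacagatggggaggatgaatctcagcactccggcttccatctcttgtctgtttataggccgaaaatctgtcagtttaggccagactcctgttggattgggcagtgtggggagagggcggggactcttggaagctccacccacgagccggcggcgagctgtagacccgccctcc

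The run TTCTAATTATATCC of 14 bases was held, on either strand, by 4 of the 32851 promoter windows of 250 bases in the table, and these were the windows of Myh4, Myh1, Myh2 and Myh8. It began 158 bases before the start in Myh4, 160 in Myh1, 125 in Myh2 and 54 in Myh8. In the 3 adult fast chains it extended to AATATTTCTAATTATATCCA, a run of 20 bases that no other window held. A second run, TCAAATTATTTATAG, was shared by Myh4, Myh1 and Myh8 and by no other window, and a match to the consensus of the MEF2 site overlaps it in all 3. MEF2 proteins are transcription factors of muscle genes, and 2.92% of all windows held that consensus on either strand. TATAAA began 31 bases before the start in Myh4, 32 in Myh1 and 29 in Myh3, against a share of 12.4% of windows with TATAAA at any position on either strand. A CArG box, the site of serum response factor, was found in the Myh4 window and in 1.47% of all windows. The E-box CANNTG, bound by myogenic factors among others, matched in 66.2% of windows, among them those of Myh4, Myh8, Myh7, Myh6, Myh3, Myh9 and Myh10. CCAAT matched in 33.8% of windows, with 1 to 3 matches each in Myh1, Myh7, Myh8, Myh9 and Myh10. Aligned end to end, the windows of Myh4 and Myh1 were 57.8% identical, the highest of the 36 pairs of members, whose lowest was 43.1%. The fast and perinatal windows held 36.0% to 42.4% G and C, below the 62.4% of Myh9 and the 62.8% of Myh10. These matches describe letters only, and no binding was measured.

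Values below are the log2 signals deposited by the authors. For each gene the probe set of highest average signal was taken. Detection calls were not used, so 5.86, the median of all deposited values, marks low signal here. Differences are Naa10-KO minus WT with limma's standard error (SE), fitted over all 18193 genes and adjusted over all of them by the method of Benjamini and Hochberg. Signals of different probe sets are not on a common scale, so levels are compared between arrays and not between chains. White adipocyte markers matched the labelled tissue: all 8 of the 10 listed that were measured lay above the mark on every array, with mean log2 signals of 13.99 to 14.43. On Naa10-KO replicate 1 the control probe sets of Gapdh gave a log2 signal higher by 0.55 at the 3' end than at the 5' end, while this gap was -0.27 to 0.01 on the rest.

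None of the 10 chains passed the adjusted threshold of 0.05, in either direction, although the mean of Myh4 differed by 7.91 on the log2 scale. Over all genes 0.0879% were called higher and 0.0275% lower. The unadjusted p was under 0.05 for 1 chain, Myh4, which was higher, against 4.85% of all genes on that side and 4.35% on the lower side. The groups did not overlap, with Naa10-KO higher, for 2 chains, Myh4 and Myh8, against 10% of genes, and with Naa10-KO lower for 0 chains, against 8.14% of genes. Group means were higher in Naa10-KO for 5 chains and lower for 5, with a median difference of 0.43 against 0.01 over all genes.

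**Figure D1:**
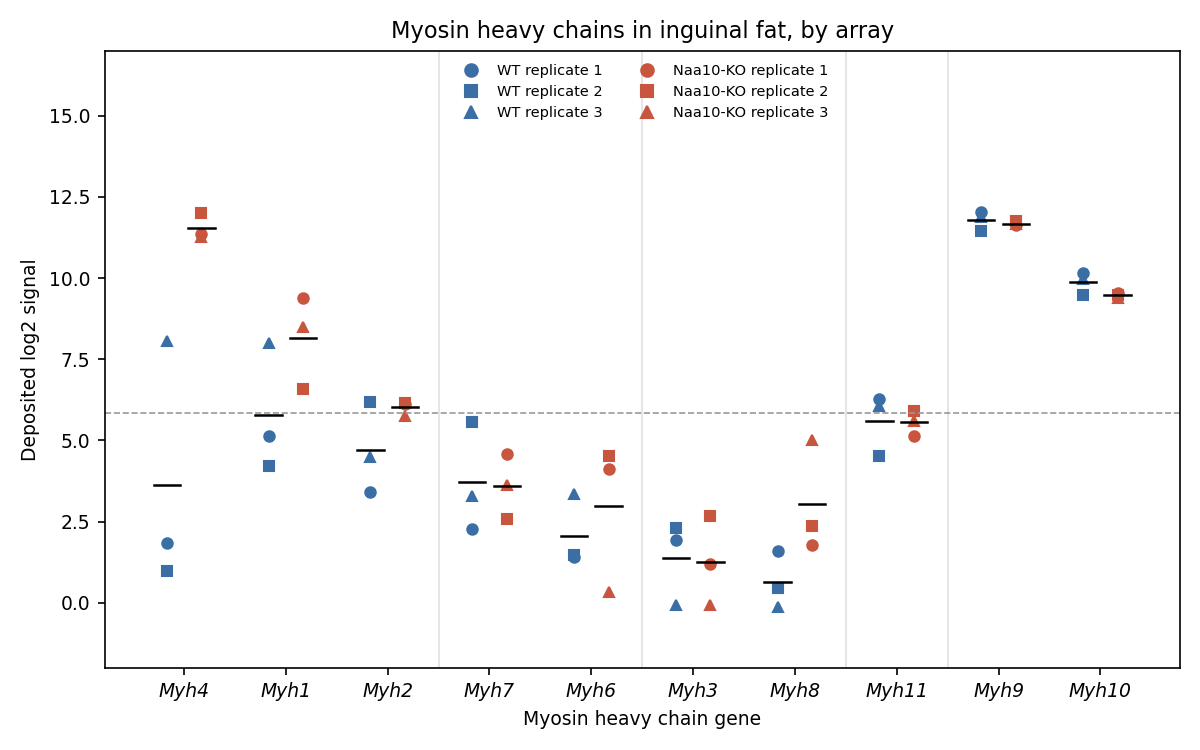
Deposited log2 signal (vertical axis) of the 10 myosin heavy chain genes (horizontal axis) on each array, WT in blue and Naa10-KO in red, with a marker shape for each replicate number, a black bar at each group mean and a dashed line at 5.86, the median of all values. Myh4 is at 11.27 to 12.001 on the Naa10-KO arrays and spreads from 0.99 to 8.06 on the WT arrays, while Myh9 stays between 11.45 and 12.04.

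Myh4, the IIb chain of the fastest fibres, was at 1.84, 0.99 and 8.06 on WT replicates 1, 2 and 3 and at 11.36, 12.001 and 11.27 on Naa10-KO replicates 1, 2 and 3. On the linear scale, on which every array has a trimmed mean of 500, these are signals of 3.59, 1.99 and 266 in WT and of 2623, 4099 and 2466 in Naa10-KO. Every Naa10-KO array was high, WT replicate 3 lay between, and the other 2 WT arrays were far below the mark for low signal. The difference was 7.91 (SE 1.93, 95% interval 3.05 to 12.77, limma adjusted p = 0.412). It ranked 4 from the highest among 18193 genes as deposited, and 9 among the 13264 tested with low values raised to the mark. WT replicate 3 lay 6.64 above the mean of the other WT arrays and carried 65.2% of the gene's squared deviation within genotypes. The SD of Myh4 was 3.86 over the WT arrays and 0.40 over the Naa10-KO arrays (n = 3 each), and 99.99% of genes had a smaller SD in WT. In whole tissue, fewer cells of a type and less RNA per cell cannot be told apart.

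Myh4 passed in 2 of the 15 alternative settings. Without WT replicate 3 it rose by 10.12 (SE 0.39, limma adjusted p = 0.0317, 0.159% of genes called higher). With all values below the mark raised to it, Myh4 rose by 4.95 (SE 0.62, limma adjusted p = 0.0245), where 0.784% of genes were called higher. Raising low values also removes spread among arrays below the mark, which here were 2 of the 3 WT arrays. Over all 15 settings the Myh4 difference lay between 4.95 and 10.12 and its adjusted p between 0.0245 and 0.657. The highest p came from the fit with the replicate number as a block. With trend and robust options 0.561% of genes were called higher, and Myh4 was not among them (limma adjusted p = 0.288). A second Myh4 probe set lay below the mark on all 6 arrays, at 1.10, 1.79 and 4.34 in WT and 5.33, 3.50 and 4.47 in Naa10-KO. Its groups overlapped, and its difference was 2.03 (SE 0.98), with an adjusted p of 0.704 in limma's fit of all probe sets.

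Myh1, the IIx chain, was at 5.15, 4.20 and 7.99 on WT replicates 1, 2 and 3 and at 9.38, 6.59 and 8.49 on the Naa10-KO arrays. WT replicate 3 lay above Naa10-KO replicate 2, so the groups overlapped, while the other WT arrays were below all Naa10-KO arrays. The difference was 2.37 (SE 1.22, 95% interval -0.69 to 5.43, limma adjusted p = 0.601), and without WT replicate 3 it was 3.48 (adjusted p = 0.429). The probe set behind these values ends in x_at, a mark of probes that can also bind other transcripts. Among the other Myh1 probe sets, one was at 0.98, 3.94 and 7.54 in WT and 9.34, 7.19 and 8.51 in Naa10-KO, with the same 2 arrays overlapping and a difference of 4.19 (SE 1.72). The last was below the mark on all 6 arrays, with a difference of 0.89 (SE 1.505), which is also the gene's value when probe sets ending in x_at, s_at and a_at are left out.

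Myh2, the IIa chain of fast oxidative fibres, was at 3.40, 6.19 and 4.495 in WT and at 6.13, 6.16 and 5.76 in Naa10-KO. Its highest array was WT replicate 2, and WT replicate 3, which was high for Myh4 and Myh1, was among its 2 lowest. The difference of 1.32 (SE 0.72, 95% interval -0.48 to 3.13, limma adjusted p = 0.611) became 0.08 when values below the mark were raised to it, since all 6 arrays lay at or below 6.19. It was 0.68 without WT replicate 1 and 2.07 without WT replicate 2.

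Myh7, the slow β chain, lay below the mark on every array, at 2.27, 5.57 and 3.30 in WT and 4.59, 2.58 and 3.62 in Naa10-KO. Genotypes overlapped fully, with a difference of -0.12 (95% interval -2.60 to 2.36, limma adjusted p = 0.975). Myh6, the α chain of the heart, was below the mark on every array too, at 1.40, 1.46 and 3.34 in WT and 4.12, 4.52 and 0.34 in Naa10-KO, where Naa10-KO replicate 3 was the lowest array. Its difference was 0.92 (95% interval -2.29 to 4.13, limma adjusted p = 0.834), and its other probe set, at -1.29 to 3.82 over the arrays, put Naa10-KO replicate 3 highest. With 1 array left out the Myh6 difference ran from 0.16 (without Naa10-KO replicate 2) to 2.25 (without Naa10-KO replicate 3). The array also holds 2 probe sets shared by Myh7 and Myh6, which belong to no single member; their signals were 0.55 to 2.60 and 1.80 to 4.64, below the mark on all arrays and overlapping between genotypes.

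Myh3, the embryonic chain, ranged from -0.06 to 2.30 in WT and from -0.06 to 2.68 in Naa10-KO (difference -0.12, 95% interval -2.47 to 2.24, limma adjusted p = 0.975). Myh8, the perinatal chain, was at 1.59, 0.47 and -0.11 in WT and at 1.77, 2.36 and 5.01 in Naa10-KO. Its groups did not overlap, by a gap of 0.18 between WT replicate 1 and Naa10-KO replicate 1, yet all 6 arrays were below the mark. The difference was 2.40 (SE 0.97, 95% interval -0.04 to 4.83, limma adjusted p = 0.542), and 1.42 without Naa10-KO replicate 3. WT replicate 3, high for Myh4, was the lowest array for Myh8. With low values raised to the mark, Myh7, Myh6, Myh3 and Myh8 had the same value on every array and were not tested.

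Myh11, the smooth muscle chain, was at 6.28, 4.51 and 6.05 in WT and 5.15, 5.91 and 5.61 in Naa10-KO, close to the mark. WT replicate 2 was the lowest array, and the 3 Naa10-KO arrays fell between it and the other WT arrays. The difference was -0.06 (SE 0.53, 95% interval -1.39 to 1.27, limma adjusted p = 0.979). A second Myh11 probe set, below the mark on all arrays, had 2.44, 1.72 and 5.48 in WT and 5.44, 3.39 and 3.56 in Naa10-KO (difference 0.92, SE 1.15).

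Myh9, non-muscle myosin IIA, was at 12.04, 11.45 and 11.87 in WT and 11.63, 11.75 and 11.65 in Naa10-KO. The Naa10-KO arrays all lay inside the WT range, with a difference of -0.11 (SE 0.20, 95% interval -0.60 to 0.38, limma adjusted p = 0.871). Its 5 probe sets differed by -0.54 to 0.23, none past the threshold. Myh10, non-muscle myosin IIB, was at 10.17, 9.47 and 9.97 in WT and 9.53, 9.49 and 9.38 in Naa10-KO. WT replicate 2 sat among the Naa10-KO arrays and the other 2 WT arrays above them, and the difference was -0.40 (SE 0.22, 95% interval -0.96 to 0.15, limma adjusted p = 0.612). The SDs over the Naa10-KO arrays, 0.06 for Myh9 and 0.08 for Myh10, were small: 5.41% and 7.45% of genes had smaller ones. The leading probe sets of these chains and of Myh11 ranked WT replicate 1 above WT replicate 3 and that above WT replicate 2, an order that 3 of the other 4 Myh9 probe sets and the second ones of Myh10 and Myh11 did not share.

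**Figure D2:**
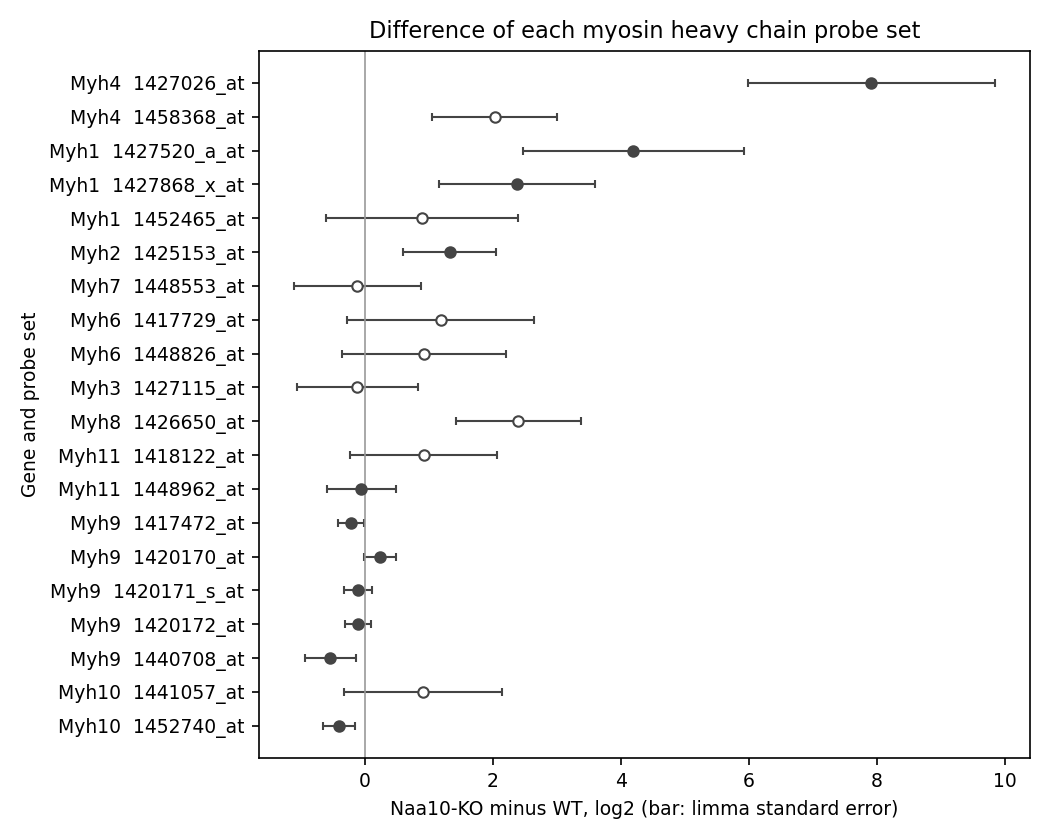
Difference between Naa10-KO and WT (horizontal axis, log2) for each of the 20 probe sets of the 10 chains (vertical axis), with bars of 1 limma standard error from the fit over all probe sets. Open circles mark probe sets below 5.86 on all 6 arrays. The leading Myh4 probe set stands at 7.91, and the 5 probe sets of Myh9 lie between -0.54 and 0.23.

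Tested one by one among all 45037 probe sets, 0 of the 20 member probe sets passed in limma, as did 0 of all probe sets (0% called in each direction). At an unadjusted p under 0.05 there was 1 member probe set, the leading one of Myh4, which was higher, beside 3.50% of all probe sets on that side and 3.96% on the lower side. Means were higher in Naa10-KO for 12 and lower for 8 of the 20, and 9 of the 20 lay below the mark on all arrays. Groups did not overlap for 2 of them, both higher, against 8.09% of all probe sets on that side and 7.82% on the lower side. With trend and robust options 130 probe sets were called higher and 55 lower, 0 of them members. Without WT replicate 3 the leading Myh4 probe set had an adjusted p of 0.0896 over all probe sets in limma.

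Whether chains differed from each other in their change was asked within arrays, by subtracting one chain's log2 signal from another's, for 6 pairs. The subtraction leaves a constant offset of the probe sets, so only the change between genotypes can be read. With 3 arrays against 3, an exact permutation test cannot give a p below 0.1. Myh1 minus Myh4 was 3.30, 3.21 and -0.06 in WT and -1.98, -5.41 and -2.78 in Naa10-KO, a shift of -5.54 with no overlap (exact 2-sided permutation p = 0.1, adjusted p = 0.12 over the 6 pairs). The IIx chain differed between genotypes by less than the IIb chain on these arrays, but the test of that gap did not pass. The groups overlapped for Myh1 minus Myh4 with the mean of all probe sets (shift -2.48) and without x_at, s_at and a_at probe sets (-7.02), each with an exact permutation p of 0.2. Myh2 minus Myh4 shifted by -6.59, from 1.06 ± 4.399 to -5.52 ± 0.30 (SD, n = 3 each, exact permutation p = 0.1, adjusted p = 0.12). With the mean of all probe sets this shift was -3.64 and the groups overlapped (exact permutation p = 0.2). Myh1 minus Myh2 shifted by 1.05, with overlapping groups (exact permutation p = 0.7, n = 3 each). Against the chains of other cell classes, Myh4 shifted by 8.02 relative to Myh9, by 8.31 relative to Myh10 and by 7.97 relative to Myh11, each without overlap and with an exact permutation p of 0.1 (adjusted p = 0.12). With low values raised to the mark these shifts were 5.06, 5.36 and 5.14, and with the mean of all probe sets 5.12, 4.72 and 4.54. Raising low values also brought Myh1 minus Myh4 to -3.37 and Myh2 minus Myh4 to -4.87. None of these settings made the groups of the pair overlap.

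**Figure D3:**
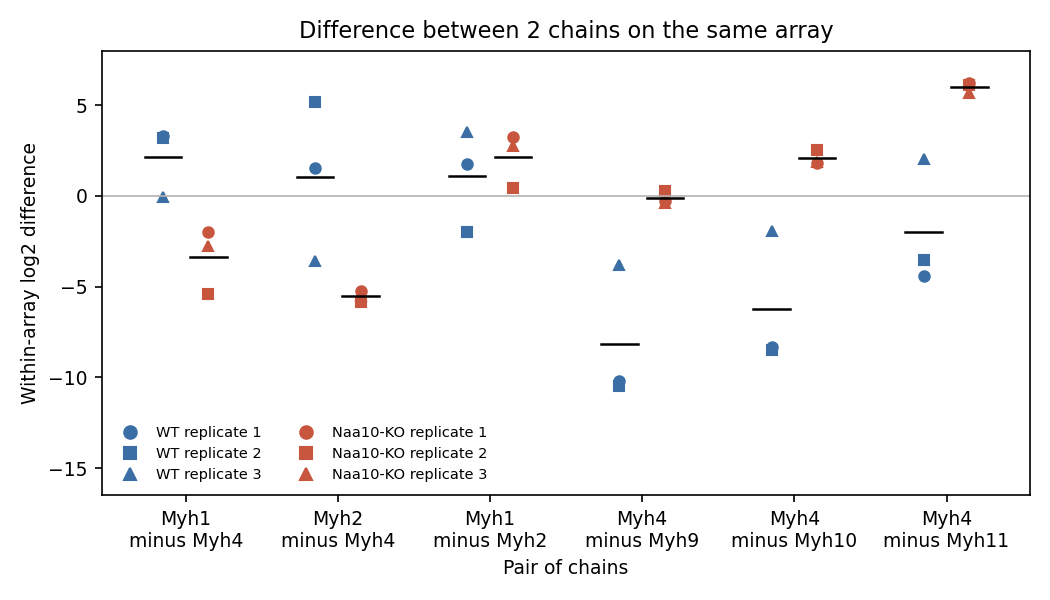
Difference between the log2 signals of 2 chains on the same array (vertical axis) for 6 pairs (horizontal axis), WT in blue and Naa10-KO in red, with marker shapes for replicate numbers and black bars at the group means. For Myh4 minus Myh9 the WT arrays sit between -10.46 and -3.82 and the Naa10-KO arrays between -0.38 and 0.25, while the groups overlap for Myh1 minus Myh2.

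The genes nearest to a chain in pattern were found by the root mean square difference over the 6 arrays of log2 values centred on each gene's mean, among 11355 genes whose mean reached the mark. Nearest to Myh4 were Myot (0.37), which encodes the Z-disc protein myotilin, the fast troponins Tnnc2 (0.59) and Tnni2 (0.68), Mylpf (0.75), the regulatory light chain of fast myosin, and Pgam2 (1.10), the muscle phosphoglycerate mutase. The median gene was 4.53 away from Myh4. Myot, Tnni2 and Pgam2 had WT means of 3.23, 5.14 and 4.45, below the mark. They were among the genes compared only because their Naa10-KO arrays raised the mean over all 6. Myot was at 1.90, 0.46 and 7.34 in WT and 11.25, 11.21 and 11.42 in Naa10-KO, an array pattern that the measure of likeness itself selects for. Nearest to Myh1 were Mpzl2 (0.93), Slpi (0.95), Slc2a3 (0.996), Tuba8 (1.01) and Hspb7 (1.04), against a median of 1.84. These were farther from Myh1 than the first 4 were from Myh4. Mpzl2, Slpi and Tuba8, with WT means of 5.84, 5.54 and 5.32, also reached the mark only through their Naa10-KO arrays. Nearest to Myh11 were Pi15 (0.20), Rassf10 (0.22), E030030I06Rik (0.24), Rac3 (0.24) and Cd2 (0.25), where the median gene was 0.64 away and no smooth muscle marker was among the 5.

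Genes that partner fast myosin were also read. The list was chosen with earlier results of these data known, so its counts are not independent of them. All 12 fast fibre partners had no overlap between genotypes, with Naa10-KO higher, against 10% of all genes, and their median difference was 4.57 against 0.01 over all genes. In limma over all genes 2 rose (Pvalb by 3.92 and Tpm1 by 3.08, adjusted p = 0.0409 and 0.0408), 0 fell and 10 did not pass, beside 0.0879% of all genes called higher. With low values raised to the mark 9 of 12 rose, beside 0.784% of all genes. Casq1, the calcium buffer of the sarcoplasmic reticulum, differed by 2.88 and Pygm, the muscle glycogen phosphorylase, by 3.70. Mean log2 signals of the 12 were 5.14, 5.84 and 8.45 in WT and 11.56, 11.59 and 12.03 in Naa10-KO, in which WT replicate 3 again lay between. Summed linear signals of these genes ran from 2144 to 6998 in WT and from 70489 to 91024 in Naa10-KO. The part of skeletal muscle RNA in the difference of Myh4 was not tested.

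Both light chains of fast skeletal myosin had groups that did not overlap, with Naa10-KO higher, against 10% of all genes. The unadjusted p in limma was under 0.05 for both, against 4.85% of all genes. Mylpf was at 4.03, 5.18 and 10.50 in WT and 14.13, 14.01 and 14.65 in Naa10-KO (difference 7.69, SE 1.73, limma adjusted p = 0.356). Myl1, the alkali light chain of fast fibres, varied less in WT, at 11.10, 11.75 and 12.08, against 14.63 to 14.77 in Naa10-KO, and differed by 3.08 (SE 0.28, adjusted p = 0.0530). Myl1 rose with low values raised to the mark, where 0.784% of all genes were called higher. Of 5 slow, heart and embryonic light chains 0 passed in limma. At an unadjusted p under 0.05, 1 was lower, Myl4, against 4.35% of all genes. Myl3, the slow essential light chain, was at 1.09, 3.35 and 5.96 in WT and 6.31, 4.98 and 5.52 in Naa10-KO. Its groups overlapped, and its difference of 2.13 (limma adjusted p = 0.639) was 0.12 with low values raised to the mark. Myl4, the embryonic and atrial light chain, differed by -0.59 at high signal, from 11.86 ± 0.07 to 11.27 ± 0.20 (SD, n = 3 each). The 4 smooth and non-muscle light chains had a median difference of 0.05 and 0 calls (0 at an unadjusted p under 0.05), with Myl9 at -0.55 and Myl6 at 0.37.

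Proteins that hold, fold or modify myosin came next. Of 10 measured thick filament partners, 7 had groups that did not overlap, all higher, against 10% of all genes. In limma 0 passed over all genes and 7 had an unadjusted p under 0.05, all higher, against 4.85% of all genes. With low values raised to the mark 6 of the 8 then tested rose, against 0.784%. Of the 10, 5 lay below the mark on all WT arrays. Those still tested then had no WT spread and were kept through their Naa10-KO arrays only. Trim63, the ubiquitin ligase MuRF1 that degrades myosin, was at 2.16, 0.98 and 5.93 in WT and 13.18, 11.60 and 11.36 in Naa10-KO, and its difference of 9.02 (SE 1.38, limma adjusted p = 0.167) was 6.17 with low values raised to the mark. Myom2, the M-band protein of fast fibres, differed by 6.00 (adjusted p = 0.0691), Mybpc2, the fast myosin-binding protein C, by 6.15, and Myom1 by 1.83. Among 6 measured genes of myosin folding and assembly 0 passed. Smyd1, a methyltransferase needed for sarcomere assembly, differed by 1.79 and Unc45b, the muscle myosin chaperone, by 1.03. Neither overlapped between genotypes, against 10% of all genes with Naa10-KO higher. Groups also did not overlap for 1 gene that was lower, against 8.14% of all genes. At an unadjusted p under 0.05, 2 were higher and 0 lower, against 4.85% and 4.35%. With low values raised to the mark Smyd1 rose, against 0.784% of all genes. Hspb1 and Stip1, which many cells express, differed by -0.35 and -0.10. Of 8 light chain kinases and phosphatase subunits 0 passed. At an unadjusted p under 0.05, 2 were higher and 1 lower, against 4.85% and 4.35% of all genes. Mylk4 differed by 6.62, Mylk2, the skeletal kinase, by 2.34, and Ppp1r12b by 0.32. Mylk, the kinase of smooth and non-muscle cells, differed by -1.11 without overlap, against 8.14% of all genes with Naa10-KO lower. As deposited, Mylk4 was at 1.65, 3.82 and 6.18 in WT, with an adjusted p of 0.210 in limma. With low values raised to the mark Mylk4 rose by 4.54 (limma adjusted p = 1.88e-04), against 0.784% of all genes called higher. That setting gave 2 of its 3 WT arrays the same value, which removes spread. Among heavy chains outside the 10, Myh7b differed by -0.43 below the mark and Myh14 by -0.16.

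Slow fibre, heart and developing muscle genes follow. The 10 slow fibre partners had a median difference of -0.03, with 0 calls in limma. Their mean signals were 6.73 to 7.69 in WT and 7.63 to 7.99 in Naa10-KO. Groups did not overlap for 2 that were higher and 1 that was lower, against 10% and 8.14% of all genes. At an unadjusted p under 0.05 there were 2, both higher, against 4.85% of all genes. These 2 were Mb, myoglobin, which fast oxidative fibres and heart also make (difference 5.32, adjusted p = 0.172), and Csrp3 (1.90). Fhl1 and Myoz2 differed by -0.43 and 0.28. With low values raised to the mark Mb and Csrp3 rose, against 0.784% of all genes called higher. Heart markers had a median of -0.72 over 8 genes, 5 of them below the mark on every array, with 0 calls. At an unadjusted p under 0.05 there was 1, the light chain Myl4 again (difference -0.59), which was lower, against 4.35% of all genes. Tnnt2, Tnni3 and Nppa differed by -1.66, 1.29 and -1.17. Of 14 genes of developing and regenerating muscle 0 passed, 7 were below the mark on every array and the median was 0.82. At an unadjusted p under 0.05, 3 were higher and 2 lower, 1 of these being Myl4 again, against 4.85% and 4.35% of all genes. Myf6, a myogenic factor of mature fibres, was at 3.48, 1.47 and 1.01 in WT and 9.04, 8.37 and 8.20 in Naa10-KO (difference 6.55, adjusted p = 0.0736), and unlike Myh4 had its lowest value on WT replicate 3. It rose by 2.68 with low values raised to the mark, a setting in which its WT arrays all held the same value. Des, desmin, differed by 1.40, and Pax7, the satellite cell factor, by -1.80 below the mark.

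**Figure D4:**
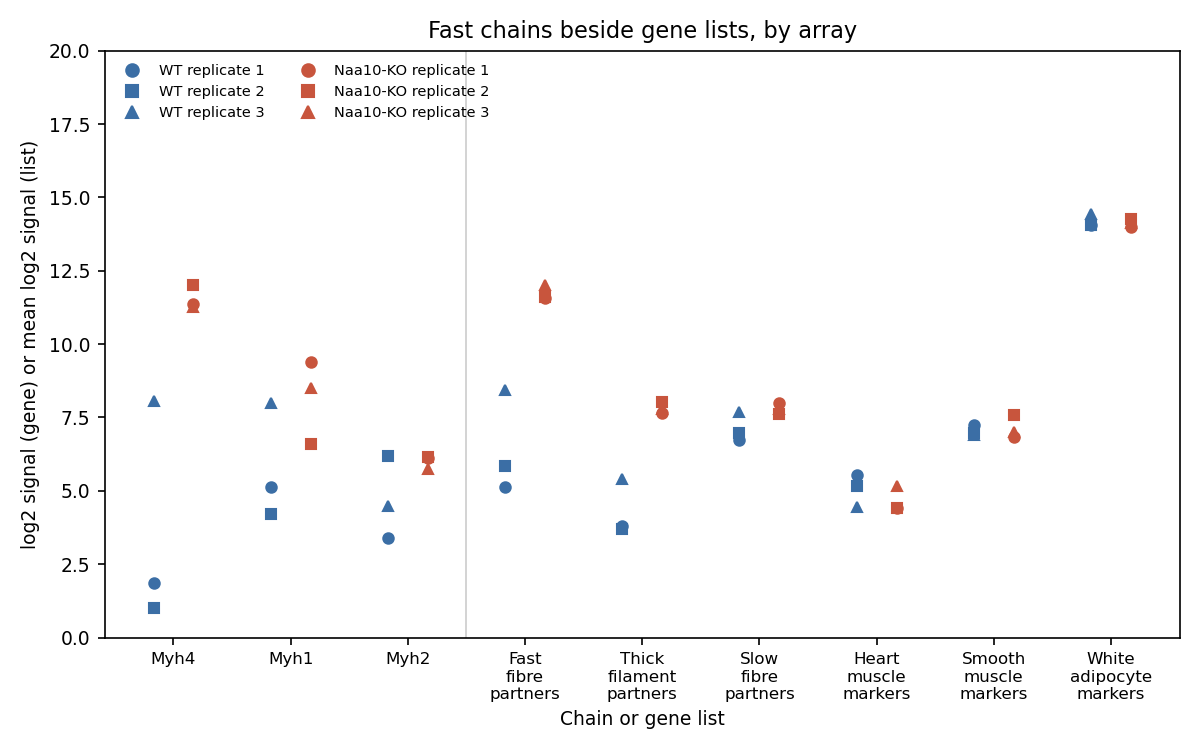
Log2 signal of the 3 adult fast chains (left of the line) and mean log2 signal of the measured genes of 6 lists (right) on each array (vertical axis), WT in blue and Naa10-KO in red, with marker shapes for replicate numbers. Fast fibre partners are at 5.14 to 8.45 in WT and 11.56 to 12.03 in Naa10-KO, whereas slow fibre partners are at 6.73 to 7.69 in WT and 7.63 to 7.99 in Naa10-KO.

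Myh11 and the non-muscle chains can be read beside their own cell types. The 10 smooth muscle markers had a median difference of -0.04, with 0 calls in limma. At an unadjusted p under 0.05, 2 were lower, against 4.35% of all genes, and 0 were higher. Synpo2, an actin-bundling protein, differed by -0.76 and Cnn1, calponin, by -0.72 below the mark. Both were without overlap, against 8.14% of all genes with Naa10-KO lower. Groups also did not overlap for 1 marker that was higher, against 10% of all genes. Actg2 and Pln differed by 0.93 and 0.80. The 6 pericyte markers had a median of -0.08, with Rgs5 at -0.55 and Abcc9 at 0.44, and 0 calls (0 at an unadjusted p under 0.05). Medians were -0.01 for white adipocytes (8 measured), -0.16 for fibroblasts and progenitors (8), 0.08 for macrophages (6) and 0.14 for endothelium (6). Each had 0 calls. At an unadjusted p under 0.05 there were 0, 1, 0 and 1 genes, all higher, against 4.85% of all genes. Brown and beige adipocyte markers had a median of 0.77 over 8 genes, with 0 calls. At an unadjusted p under 0.05 there were 4, all higher and without overlap, against 4.85% and 10% of all genes on that side. With low values raised to the mark 1 gene, low on every array, dropped out. The median of the 7 then tested was 1.17, and Ucp1 and Cox7a1 rose, against 0.784% of all genes called higher. Fibre type regulators had a median of 0.26 over 12 genes and 0 calls. At an unadjusted p under 0.05, 2 were higher and 1 lower, against 4.85% and 4.35% of all genes. Vgll2, a cofactor of muscle gene expression, differed by 1.85, Mef2c by 0.65, Tbx15 by 0.60 and Prox1, a factor of slow fibres, by -0.99 below the mark.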

How the data were processed

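The authors deposited 1 log2 signal per probe set and array. On each array the mean of the linear signal, trimmed by 2% at each end, was 500. Which software made them: not given in the sources used here. Values were used without further normalization. Gene names came from the platform annotation (2016). Without 64 controls there were 45037 probe sets, of which 34945 had 1 gene, 932 several and 9160 none in it, and the Entrez IDs of all 20 member probe sets matched RefSeq genes, changing 0 symbols. Genotypes were tested by limma 3.58.1 under R 4.3.3 (genotype as the only term, 2-sided, threshold 0.05), which borrowed 1.39 prior degrees of freedom. The number of arrays limits the precision. Pairs of chains were compared by exact permutation. Of the script's steps, the limma gene fit was tested on simulated data and the permutation function on small made-up cases.

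The members and the 19 lists (145 of 153 entries measured) were chosen with earlier results of these data known. Genes named are the members, at most 4 per list, by lowest unadjusted p, and the 5 nearest to Myh1, Myh4 and Myh11; the others were chosen after their values were seen.

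Alternatives were quantile normalization, centring on array medians, a filter that keeps genes with a group mean at or above 5.86, a floor that raises lower values to 5.86 and drops genes below it on every array, the mean of a gene's probe sets, probe sets ending in x_at, s_at or a_at left out, array weights, a block for the replicate number, trend and robust options of eBayes, and leaving out each array. With the floor, a gene below 5.86 on every WT array had no WT spread and was kept only through its Naa10-KO arrays. Replicate numbers mark different mice, and no label ties them to a litter or day, so they were not taken as pairs.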

Additional observations from a re-analysis of the deposited data

How the results depend on the processing

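With 16 genes called higher and 5 lower as deposited, the counts were 14 and 3 with quantile normalization, 104 and 13 with the floor, 75 and 12 once low values were filtered out, 102 and 35 with trend and robust options and 27 and 7 with array weights. They were 0 and 0 with the mean of all probe sets (736 and 755 at an unadjusted p under 0.05 in limma) and 0 and 0 with the replicate block (649 and 627). With the block, 0 chains passed (Myh4 7.91, adjusted p = 0.657), and the deviations of same-numbered arrays correlated by -0.03 to -0.01 over genes. Leaving out 1 array gave 0 to 29 genes higher and 0 to 1 lower. The number of chains past the threshold, 0 as deposited, was 1 (Myh4) with the floor and 0 to 1 with 1 array left out, the 1 being without WT replicate 3; the other alternatives gave 0, and 0 of 20 member probe sets passed in any of theirs. With 1 array left out, Myh7 lay between -0.84 and 0.81, Myh3 between -0.84 and 0.55, Myh11 between -0.61 and 0.28, Myh9 between -0.28 and 0.016, Myh6 between 0.16 and 2.25, Myh2 between 0.68 and 2.07, Myh10 between -0.61 and -0.25 and the shift of Myh1 minus Myh2 between -0.49 and 2.26. Array weights gave 0.011 for Myh3 and 0.13 for Myh11, the mean of all probe sets gave 0.43 for Myh11 and 0.25 for Myh10, and without x_at, s_at and a_at probe sets Myh1 minus Myh2 shifted by -0.43. The cause of these changes was not tested. Signal over background is unknown for the 4 chains below the mark on every array.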
